A study of Oryza sativa Indica Group with 2 samples.

Results

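The ends of the short arms of rice chromosomes 11 and 12 were examined here as a pair of segments that share a duplicated stretch of the genome. Their members are the loci numbered 1010 to 4899 on each chromosome, which gave 382 loci on chromosome 11 and 371 on chromosome 12, that is 753 of the 55337 loci of the deposited table. Poly(A) RNA of young panicles, taken as spikelets with meiocytes in prophase I, was sequenced as 1 library of the *Osam1* mutant and 1 library of the wild type. The wild type was the *indica* variety Zhongxian 3037, and the mutant was derived from it by gamma-ray irradiation and lacks 2 nucleotides of exon 2 of *OsAM1*, which brings in a premature stop codon. The plants were grown in the same paddy field, the spikelets of several panicles were pooled for each RNA sample, and these spikelets hold many somatic cells beside the meiocytes. With 1 library per genotype no difference has a replicate check, so that all comparisons below describe these libraries and no test was made. The targeted gene cannot check the labels, since no source used here pairs *OsAM1* with a locus. The column headings write the allele in capitals for the library labelled as the mutant and in small letters for that labelled as wild type, where plant genetics commonly does the reverse. These headings and the text of the study give reason to think that the labels may be exchanged. The labels were kept, the libraries are called Osam1-labelled and WT-labelled, and every direction given here turns round if the labels are exchanged.

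Segmental duplication copies a run of neighbouring genes, so that each gene starts with a partner on another chromosome in the same order along the arm. The duplication at the ends of rice chromosomes 11 and 12 is known as the youngest large one of the rice genome, and gene conversion between the arms has kept many of its copies very similar. After duplication, partners can both stay active, divide their tissues between them, or fall silent. Short reads from near-identical copies can match both places, and the level of such a locus then depends on how the reads were assigned. The libraries did not keep the strand, so overlapping genes on opposite strands cannot be told apart either. Neither the table nor the reference used here holds sequences or descriptions for these loci, so partners were not matched by sequence, and the segments were compared as wholes and by position.

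Values are FPKM, fragments per kilobase of transcript scaled to the size of the library, added over the transcript models of a locus. The number of reads behind a locus is not in the table. Among 4326 loci with 1 transcript model and 1 to 10 FPKM in the Osam1-labelled library, the most frequent ratio of that library to the other was 2.37, with further peaks at 4.73, 1.18 and 0.789. If the main peak stands for equal numbers of reads, the WT-labelled library held 2.37 times as many. That library also had more loci above 0, 23756 against 22088. The read totals in the study name the mutant library as the deeper one, which is the opposite order under these labels. Those totals also differ by far less than 2.37 times, whichever way the libraries are labelled. The part of depth in the number of loci above 0 and in the shares below was not tested. Of the genes with a known role in this tissue that the study pairs with a locus, *MEL1* (LOC_Os03g58600), a germ cell Argonaute, had 22.1 FPKM in the Osam1-labelled and 19.6 FPKM in the WT-labelled library. *MIL1* (LOC_Os07g05630), a glutaredoxin of the anther, had 7.96 and 4.48 FPKM. Both markers of the labelled tissue were thus present in both libraries.

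The question set by the segments is whether duplicated ends are as active as each other and as the rest of their chromosomes. The share of active loci was nearly the same in both segments. On chromosome 11, 230 of the 382 loci (60.2%) were above 0 FPKM in a library or in both, and on chromosome 12, 225 of the 371 loci were (60.6%). Of the 6772 loci in the rest of the 2 chromosomes, 2591 were (38.3%), and over all loci of the table the share was 49.7%. This rest lacks chromosome 12 beyond number 37610, where the table ends. The remaining 152 loci of the chromosome 11 segment and 146 of the chromosome 12 segment were listed at 0 in both libraries. In bulk RNA, fewer cells of a type and less RNA per cell cannot be told apart, and a locus listed at 0 may still be transcribed in few cells.

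Each library by itself gave the same picture. In the Osam1-labelled library 49.2% of the chromosome 11 and 49.6% of the chromosome 12 members were above 0, against 29.6% in the rest of the chromosomes. In the WT-labelled library, these shares were 52.6%, 54.2% and 29.8%. With a cutoff of 1 FPKM in at least 1 library, 208 members on chromosome 11 (54.5%) and 207 on chromosome 12 (55.8%) were left, compared with 30.1% in the rest and 43.0% over all loci. The distance between the segments and the rest therefore did not come from values below 1 FPKM alone.

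Chromosome ends differ from the interior, so the segments were also set beside their own chromosomes in windows of the same length in locus numbers. Of the 11 other windows of chromosome 11 with at least 100 loci, 0 had a higher share above 0 than the segment, and their shares ran from 24.3% to 53.2%. On chromosome 12, 0 of 9 windows had a higher share, with values from 29.8% to 56.5%. The highest share among these windows was, on both chromosomes, that of the window next to the segment, which begins at locus number 4900. One step further in, the share was 45.3% on chromosome 11 and 32.5% on chromosome 12. On chromosome 12 the share thus fell much less at the border of the segment than at the next step. On chromosome 11 the falls at the border and at the next step were of similar size. A short last window of chromosome 11, with 43 loci, had 67.4% of them above 0 and lies above the segment. The values of chromosome 12 end at number 37610, within its last window, so its far end could not be compared. The same numbers 1010 to 4899 on chromosomes 1 to 10 had 2035 of 3697 loci above 0 (55.0%). Between those 10 ends the share ran from 35.1% on chromosome 10 to 70.1% on chromosome 3, and 5 of the 10 ends were above both segments. Against other chromosome ends, then, the segments lay in the middle.

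**Figure D1:**
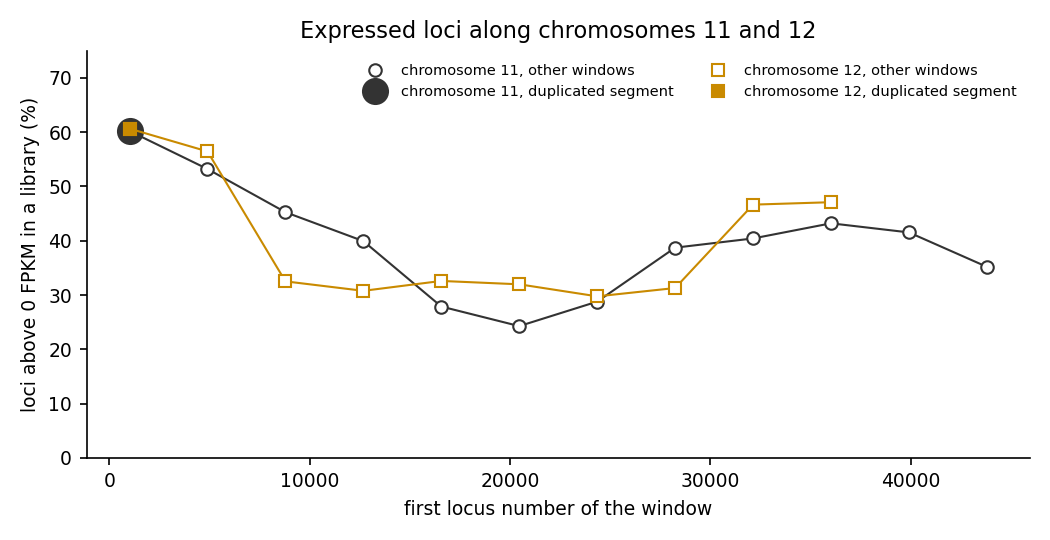
Percent of loci above 0 FPKM in at least 1 library (y axis) in windows of equal length along chromosomes 11 and 12, by the first locus number of the window (x axis); filled points are the duplicated segments and open points the other windows of at least 100 loci. The segments, at 60.2% and 60.6%, are the highest points plotted for their chromosomes, and the neighbouring windows, at 53.2% and 56.5%, come next. The values of chromosome 12 end at number 37610, within its last window.

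The medians of the segments lay close to each other. Among members above 0, the median was 14.1 FPKM on chromosome 11 and 15.2 FPKM on chromosome 12 in the Osam1-labelled library, and 11.5 and 10.7 FPKM in the WT-labelled library. In the rest of the chromosomes the medians were 7.19 and 6.26 FPKM, while the same numbers on chromosomes 1 to 10 had medians of 15.0 and 13.0 FPKM. The middle 50% of the expressed members lay between 3.56 and 32.5 FPKM on chromosome 11 and between 4.65 and 33.1 FPKM on chromosome 12 in the Osam1-labelled library. In the WT-labelled library these ranges were 2.57 to 22.4 FPKM and 3.72 to 26.8 FPKM. Single members thus spread widely within each segment.

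Added up, the members of chromosome 11 held 7216 FPKM in the Osam1-labelled library and those of chromosome 12 held 7614 FPKM, a ratio of chromosome 12 to chromosome 11 of 1.06. In the WT-labelled library, the sums were 6592 and 6470 FPKM, a ratio of 0.981. The order of the segments thus depended on the library, and neither sum was more than a few percent above the other. Few loci carried these sums. The 3 highest loci of each segment held 35.4% of the sum on chromosome 11 and 34.4% on chromosome 12 in the Osam1-labelled library, and 33.9% and 32.8% in the WT-labelled library. Without each segment's 3 highest loci, the ratios were 1.07 and 0.997.

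The expression was not spread evenly along the segments, and its peaks lay at like positions in both. In windows of 500 locus numbers, the window from 2000 to 2499 ranked first of 8 on both chromosomes and in both libraries. It held 2857 FPKM on chromosome 11 and 2433 FPKM on chromosome 12 in the Osam1-labelled library, and 2716 and 2145 FPKM in the WT-labelled library. The window from 3000 to 3499 ranked the second throughout, with 1154 and 1339 FPKM in the Osam1-labelled library and 971 and 969 FPKM in the WT-labelled library. As a ratio, the largest contrast between the segments was at 2500 to 2999, which was the lowest window of chromosome 11, with 225.6 FPKM in the Osam1-labelled and 202.8 FPKM in the WT-labelled library, and had rank 4 on chromosome 12, with 835.4 and 651.6 FPKM. Much of this contrast came from 1 locus of chromosome 12, LOC_Os12g02660, which held 38.1% of its window in the Osam1-labelled library. Locus numbers count along each chromosome by themselves, so a window of one segment need not hold exactly the partners of the same window of the other.

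**Figure D2:**
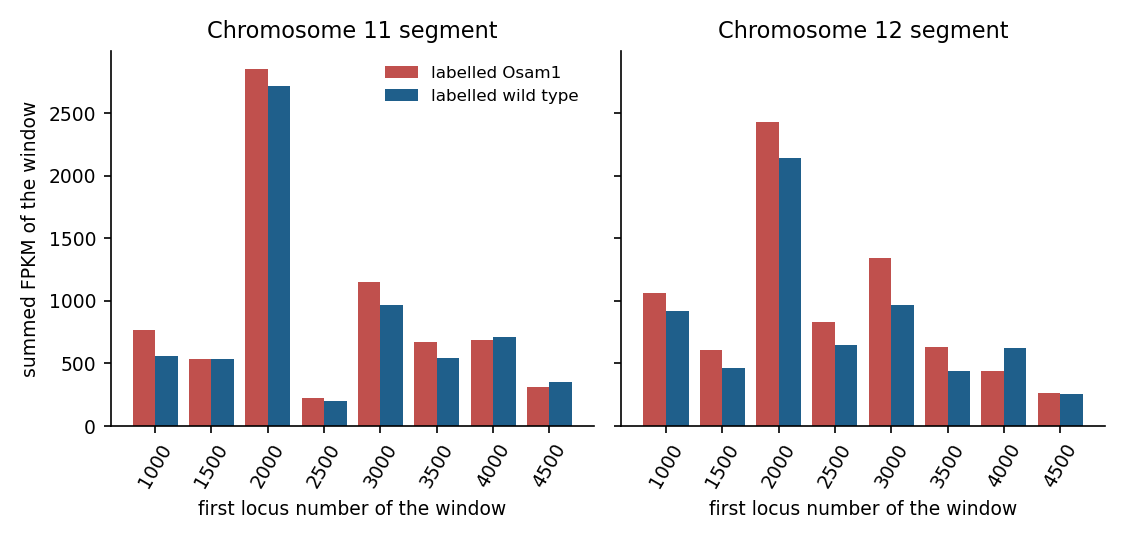
Summed FPKM (y axis, linear from 0) in windows of 500 locus numbers (x axis, first number of the window) for both segments, with 1 bar per library; the last window ends at 4899. The windows that begin at 2000 and 3000 are the tallest and second tallest in both segments, and the window at 2500 has the largest ratio between them.

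The highest members stood in these windows. On chromosome 11, LOC_Os11g02350 had 1542 FPKM in the Osam1-labelled and 1258 FPKM in the WT-labelled library, the highest values of either segment. Close to it, LOC_Os11g02330 had 546.5 and 560.1 FPKM, and LOC_Os11g02369 had 333.4 and 341.5 FPKM. On chromosome 12, the neighbours LOC_Os12g02300, with 1173 and 784.5 FPKM, and LOC_Os12g02290, with 654.2 and 837.1 FPKM, lay at nearly the same numbers. Loci listed at 0 lay close to these, on chromosome 11 partly between them and on chromosome 12 on either side of the neighbours. A range from 2290 to 2369, set after these values were seen to run between the outermost of these 5 loci, held 10 loci of chromosome 11, of which 3 reached 100 FPKM and 4 were listed at 0 in both libraries. On chromosome 12 it held 7 loci, of which 2 reached 100 FPKM and 3 were listed at 0. These few loci held 33.9% of the summed FPKM of the chromosome 11 segment and 24.0% of that of chromosome 12 in the Osam1-labelled library, and 32.9% and 25.1% in the WT-labelled library.

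In the window from 3000 to 3499, one locus again led in each segment. LOC_Os11g03400 had 468.3 FPKM in the Osam1-labelled and 385.2 FPKM in the WT-labelled library, and LOC_Os12g03090 had 789.2 and 502.2 FPKM. Both were higher in the Osam1-labelled library, by less than 2-fold. The next highest loci shared a window only in part. On chromosome 11 they were LOC_Os11g04480, with 304.6 and 416.8 FPKM, and LOC_Os11g01300, with 272.1 and 176.9 FPKM. On chromosome 12 they were LOC_Os12g01170, with 395.3 and 327.7 FPKM, and LOC_Os12g02660, with 317.9 and 294.1 FPKM. LOC_Os11g01300 and LOC_Os12g01170 were each the highest locus of the window from 1000 to 1499. LOC_Os11g04480 and LOC_Os12g02660 lay in different windows. Among the 10 highest loci of each segment, by their mean over the libraries, 0 of 10 on chromosome 11 and 1 of 10 on chromosome 12 differed at least 2-fold between the libraries. Of all loci with a mean of 100 FPKM or more, 21.6% did. The exception was LOC_Os12g04240, with 81.8 FPKM in the Osam1-labelled and 212.9 FPKM in the WT-labelled library, a log2 ratio of -1.37.

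**Figure D3:**
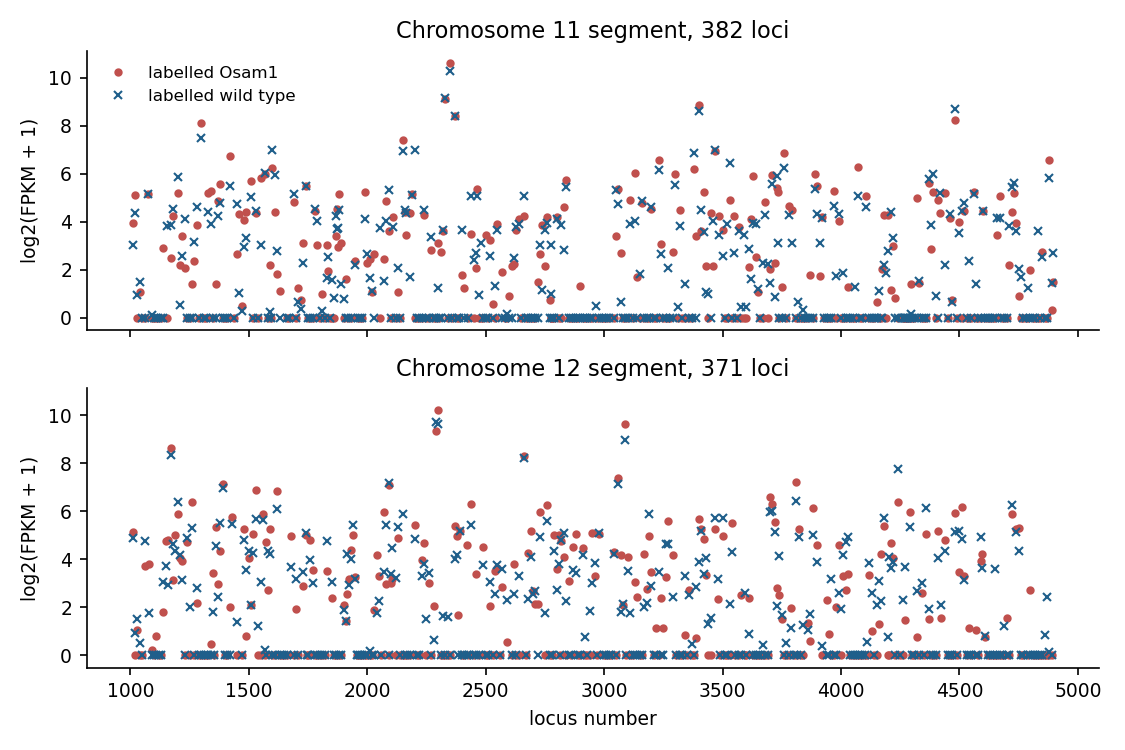
Level of each member, log2(FPKM + 1) (y axis), by its locus number (x axis) in both segments, with circles for the Osam1-labelled and crosses for the WT-labelled library. Points on the bottom line are loci listed at 0, and the tallest points stand between 2290 and 2369 in both segments.

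At the very tips, the first locus of each segment was active. LOC_Os11g01010 had 14.5 FPKM in the Osam1-labelled and 7.13 FPKM in the WT-labelled library, and LOC_Os12g01010 had 33.7 and 28.5 FPKM. At the inner border, LOC_Os11g04894 had 1.76 and 5.46 FPKM, LOC_Os12g04890 was listed at 0 in both libraries, and so were the first loci beyond, LOC_Os11g04900 and LOC_Os12g04900. Stretches of silent loci were counted within the segments only, without a comparison outside them. The longest run listed at 0 in both libraries held 8 loci on chromosome 11, from LOC_Os11g04240 to LOC_Os11g04290, and 7 loci on chromosome 12, from LOC_Os12g04040 to LOC_Os12g04100. Runs of 5 or more silent loci numbered 6 on chromosome 11 and 5 on chromosome 12.

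The libraries were compared locus by locus as the ratio of the Osam1-labelled to the WT-labelled value with 1 FPKM added to each, which understates the change of low loci, and a locus was called changed at a difference of at least 2-fold. On chromosome 11, 103 members were changed (27.0%), and on chromosome 12, 108 were (29.1%), against 16.4% of the loci in the rest of the chromosomes and 20.8% of all loci. The segments hold more expressed loci, and a locus at 0 in both libraries cannot change. With only loci above 0 in both libraries, 51 of 159 members were changed on chromosome 11 and 60 of 160 on chromosome 12. The share over all loci was not computed with this filter. Of the members above 0 in a library, 44.8% on chromosome 11 and 48.0% on chromosome 12 were changed, compared with 42.8% in the rest and 41.9% over all loci. At the 10 ends of chromosomes 1 to 10, this share ran from 37.3% to 41.6%, so both segments lay above all 10, but 2 of the 11 other windows of chromosome 11 and 1 of the 9 of chromosome 12 lay above their segment. No error goes with these shares, since each comes from 1 pair of libraries.

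Changes went both ways. On chromosome 11, 56 members were at least 2-fold higher in the Osam1-labelled library (14.7%) and 47 were at least 2-fold lower (12.3%), and on chromosome 12, 53 were higher (14.3%) and 55 lower (14.8%). The order on chromosome 12 is not firm, since the higher loci were 49.1% of the changed ones there and 55.0% among loci above 0 in both libraries. Over all loci, 9.57% were higher and 11.2% lower. The median log2 ratio of the expressed members was 0.01 on chromosome 11 and 0.09 on chromosome 12, against -0.01 for all expressed loci. A different measure, the median ratio without added FPKM of all loci with at least 1 FPKM in both libraries, lay at 0.07 in log2. The split of directions differed between single windows of the segments. In the last window of chromosome 11, from 4500 on, 1 locus was higher and 11 were lower, and in the window from 4000 to 4499 of chromosome 12, 3 were higher and 12 lower. These windows were picked after all 16 had been seen, and others were near even or tilted the other way. Windows of this length outside the segments were not compared.

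As elsewhere in the table, changes were most frequent at low levels. Where the mean of both libraries was from 1 to under 3 FPKM, 26 of 32 on chromosome 11 and 27 of 35 on chromosome 12 were changed, against 77.3% of all loci of this class. At 30 to under 100 FPKM 10 of 34 and 10 of 39 were, against 24.9% of all loci. The segments parted most at 10 to under 30 FPKM, a class singled out here for that difference. There 21 of 65 loci on chromosome 11 (32.3%) and 33 of 62 on chromosome 12 (53.2%) were changed, compared with 36.4% of all loci of this class. At 3 to under 10 FPKM the order was the other way, with 29 of 49 (59.2%) and 25 of 49 (51.0%), against 57.5% of all loci. From 100 FPKM up, 0 of 9 and 1 of 10 were changed, against 21.6% of all loci.

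**Figure D4:**
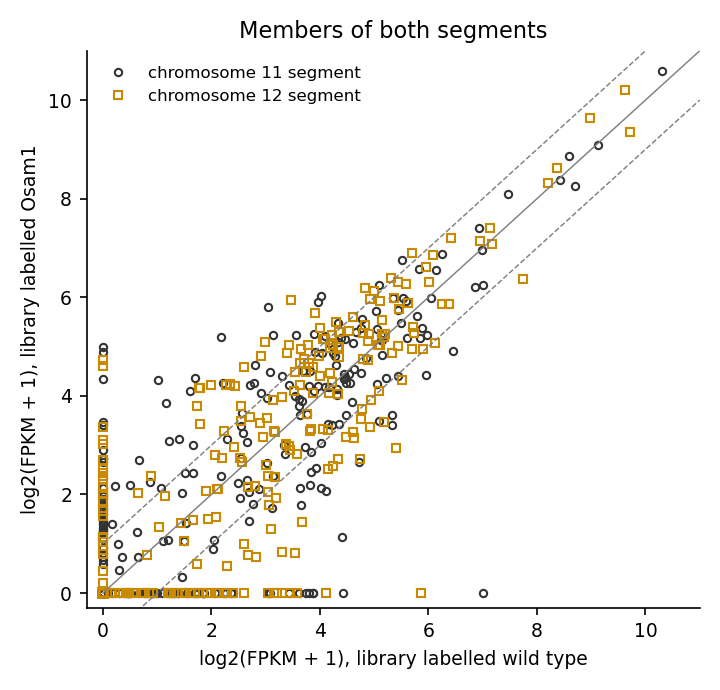
Level of each member in the Osam1-labelled (y axis) against the WT-labelled library (x axis), both as log2(FPKM + 1), for both segments. The solid line marks equal values and the dashed lines a 2-fold difference, and points along the axes are the loci listed at 0 in 1 library, with LOC_Os11g02200 the farthest at 127.4 FPKM on the x axis.

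The strongest differences were at members with no value in 1 library. Of the members with at least 5 FPKM in a library, 19 of 155 on chromosome 11 (12.3%) and 15 of 160 on chromosome 12 (9.38%) were listed at 0 in the other, which is near the 10.8% of all such loci and the 13.4% of those in the rest of the chromosomes. LOC_Os11g02200 had 127.4 FPKM in the WT-labelled library and a 0 in the Osam1-labelled one, and LOC_Os12g02150 had 57.2 FPKM and a 0. These are the largest falls of their segments on the log2 scale with 1 FPKM added, and both lie in the window that ranked first. In the other direction, LOC_Os11g04320 had 30.8 FPKM and LOC_Os11g04409 had 28.8 FPKM in the Osam1-labelled library, and both had a 0 in the WT-labelled one, the largest rises of the members. An exact 0 in a table of FPKM may be a failed assignment of reads as well as a silent gene, so no fold change is given for these loci.

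One member carries a description in the study. LOC_Os12g03130 is given there as *CDC45A*, a putative initiation protein of DNA replication. Its relatives in yeast and animals join the MCM ring and the GINS complex to form the helicase that unwinds DNA at the replication fork. The study lists this locus as lower in the mutant. It is among the loci on which the doubt about the labels rests, so its direction is open. It has 1 transcript model, with 7.16 FPKM in the Osam1-labelled library and a 0 in the WT-labelled library. The former value lies below the median of the expressed members of its segment in that library.

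A further 4 loci had been listed by ID as likely partners from general knowledge of rice, and no file used here checks that pairing. LOC_Os11g04720 had 20.2 FPKM in the Osam1-labelled and 42.5 FPKM in the WT-labelled library, and LOC_Os12g04500 had 10 and 35.1 FPKM. Both were at least 2-fold lower in the Osam1-labelled library, with log2 ratios of -1.04 and -1.71, and the chromosome 11 locus had the higher level in both libraries. In the other pair, LOC_Os11g03300 had 62.1 and 45.0 FPKM and LOC_Os12g03040 had 18.4 and 17.6 FPKM. Neither was changed 2-fold, and the chromosome 11 locus again had the higher level in both libraries.

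Exactly equal values can mark loci whose reads cannot be told apart. Of the 319 members above 0 in both libraries, 6 (1.88%) shared both of their values, to the 2 decimals of the table, with another locus, compared with 2.72% in the rest of the chromosomes and 1.73% of all loci. In 2 cases the equal loci faced each other across the segments. LOC_Os11g02630 and LOC_Os12g02550 each had 11.47 FPKM in the Osam1-labelled and 12.59 FPKM in the WT-labelled library, and no other locus had these values. LOC_Os11g01040 and LOC_Os12g01030 each had 1.07 and 1.81 FPKM, as did LOC_Os12g06270 beyond the segment. The other members of this kind, LOC_Os11g01720 with 0.67 and 0.28 FPKM and LOC_Os12g03860 with 1.52 and 1.04 FPKM, shared their values with loci of other chromosomes, where equal low values may also arise by rounding. Members listed at 0 in a library were not part of this comparison.

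Within loci, the transcript models often disagreed. Several models were listed for 52 members on chromosome 11 and 55 on chromosome 12, and 49 and 53 of these were above 0. At 9 and 11 of them, one model was at least 2-fold higher and another at least 2-fold lower in the Osam1-labelled library, together 19.6% of such members and near the 19.9% of all such loci. LOC_Os12g04720 shows the pattern, since its transcript model 1 had 74.8 FPKM in the WT-labelled library alone and its transcript model 2 had 57.2 FPKM in the Osam1-labelled library alone. At LOC_Os11g01530, model 1 had 19.3 FPKM in the Osam1-labelled library alone and model 2 had 20.8 FPKM in the WT-labelled library alone. At 17 of the 20 members of this kind the summed values stayed within 2-fold, and the level of the locus is the value compared here.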

How the data were processed

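The values deposited by the authors are FPKM per transcript model, with 2 decimals, from 1 library per genotype. Per the study's methods, reads were filtered for adaptors and low quality, aligned with SOAPaligner/soap2 to the genome of the Rice Genome Annotation Project, allowing few mismatches, and quantified with ERANGE, where the values are called RPKM. The annotation release is not given in the sources used here. That reference is a *japonica* genome, while the plants were *indica*.

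The 65535 rows were added up to 55337 loci. The table ends at number 37610 of chromosome 12, and later loci were not analysed here. Columns were assigned by the submitters' labels. The ratio was log2 of the Osam1-labelled over the WT-labelled value, each with 1 FPKM added, and an absolute value of at least 1 counted as changed. No p-value was computed. Relative depth was read from ratios of low values within 0.4% of each other. Named loci were the 10 highest of each segment, the strongest rises and falls, border loci, loci sharing values, the locus the study names and 4 IDs. RefSeq genes could not be matched to these IDs. Members and lists were chosen with earlier results of these data known. Python 3.11.15, numpy 2.4.6, pandas 2.3.3, scipy 1.17.1 and matplotlib 3.10.9 were used.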

Additional observations from a re-analysis of the deposited data

How the results depend on the processing

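Of the 39 alternative values, 35 stayed close to the value reported (within its 95% Wilson interval for a share, within 1.5 times for a count) and 4 moved. A cutoff of 1 FPKM lowered the share of expressed loci to 54.5% in the chromosome 11 segment and to 30.1% in the rest of the chromosomes, so the segment stayed the higher. Keeping loci above 0 in both libraries lowered the changed loci to 51 of 159 on chromosome 11 and to 60 of 160 on chromosome 12. That filter removes by construction every locus listed at 0 in 1 library, and the share over all loci was not computed with it. Adding 0.1 or 0.01 FPKM, dividing by the median ratio, a mean of at least 1 FPKM, the first listed transcript model, a cutoff of 0.1 FPKM and leaving out loci with shared values were the other planned settings. Ending the segments before number 4000 and exchanging the labels were added after seeing the data. The share of changed loci higher in the Osam1-labelled library crossed 50% when the labels were exchanged. It went from 54.4% to 45.6% on chromosome 11 and from 49.1% to 50.9% on chromosome 12. This outcome is fixed by arithmetic, since the exchange turns every rise into a fall, and it says nothing about stability. Both exchanged values are nevertheless counted among the 35 that stayed close. On chromosome 12 the share also crossed 50% for loci above 0 in both libraries (55.0%) and for the first listed transcript model (51.8%). The planned comparison of copies matched by protein sequence, and the restriction to loci with a RefSeq gene, could not be run, because no source used here links these IDs to sequences. No paired analysis was possible because each genotype has 1 library. The reads per locus are unknown, so no counting error is given.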

Other observations

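The direction of change in the rest of the 2 chromosomes differed from that in the table as a whole. Outside the segment, 369 loci of chromosome 11 had values at least 2 times as high in the Osam1-labelled library, with 1 FPKM added, and 270 had the reverse, while chromosome 12 had 283 higher and 186 lower. Rises were 58.8% of the changes there, 51.7% in both segments together and 46.0% over the whole table. At the same locus numbers on chromosomes 1 to 10, 395 loci were higher and 423 lower. Between those ends, the share of rises among the changes ran from 38.0% on chromosome 1 to 66.7% on chromosome 10. It was 64.0% on chromosome 9, so such a tilt was not particular to chromosomes 11 and 12. The median log2 ratio of expressed loci was 0.20 in the rest of chromosomes 11 and 12 and 0.08 in the segments. These values come from 1 library per genotype, and the part of the labels, of depth and of the genotype in them was not tested.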
